A study of Homo sapiens with 6 samples.

Results

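The metallothionein genes, the zinc transporter genes of the SLC30 and SLC39 families and the metal-responsive transcription factor gene MTF1 were compared between the lung cancer cell lines A549 and H23. Members were taken by gene symbol: every MT1 gene or pseudogene, MT2A, MT3, MT4, MTF1 and every numbered SLC30A and SLC39A gene. The rule found 41 of the 27968 genes in the tables, namely 16 metallothionein genes (13 of them MT1 genes or pseudogenes), MTF1, 10 SLC30A genes and 14 SLC39A genes. H23 and A549 are established human lines, both kept as models of lung adenocarcinoma, and neither was treated or altered here. The H23 cultures grew in RPMI 1640 and the A549 cultures in DMEM, each with fetal bovine serum, so the line and the medium cannot be told apart. Each line was sequenced as total RNA, depleted of ribosomal RNA, from 3 independent cultures near confluence. The title of the study asks how the transcriptomes of these lines differ.

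Metallothioneins are small, cysteine-rich proteins that bind zinc, copper and cadmium in the cytosol and buffer free zinc. MTF1 senses zinc through its zinc fingers and binds short metal response elements upstream of the metallothionein genes and of SLC30A1. Most SLC30 proteins move zinc out of the cytosol, either out of the cell or into organelles, and SLC39 proteins move it into the cytosol from outside or from organelles. SLC30A9 instead moves zinc out of mitochondria, and SLC30A10 exports manganese, but both are counted with the SLC30 exporters here.

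The metal response elements make the upstream sequences of these genes worth reading beside their levels. The element core was searched as TGCACNC and as TGCGCNC, on both strands, in the 250 bases before each RefSeq transcription start (GRCh38.p14). The 2 spellings differ at a fixed base, so no stretch was counted under both. Of the 41 members, 27 had an entry, with 36 windows between them. The other 14 were MT1A, MT1DP, MT1E, MT1F, MT1G, MT1HL1, MT1IP, MT1JP, MT1L, MT1M, MT3, SLC30A8, SLC39A4 and SLC39A14. At least 1 match was found in 16 of the 36 windows, from 15 of the 27 members, against 24.8% of the 35116 windows of all genes. At least 3 matches were found in 1.58% of all windows and at least 4 in 0.37%. MT1H held 8 matches, MT2A 7 and MT1X 4, while MT1B, MT4 and SLC30A2 held 3 each and SLC30A1 held 1. MTF1, SLC30A5, SLC30A7, SLC30A9 and SLC39A10 held none of these letters in the window, which says nothing of other sites. A match is a stretch of letters and not a shown binding site. The sequences below run 5′ to 3′ on the strand of the gene and end at the base before the start, and capitals mark the matches. MT2A and MT1X are shown because they were the metallothionein genes with the highest TPM in A549, MT1H and MT1B because they hold many matches yet had 0 counts in all 6 libraries, and SLC30A1 as the exporter known as an MTF1 target, whose match lies on the opposite strand. They lie at chr16:56608334-56608583 (+) for MT2A, chr16:56682220-56682469 (+) for MT1X, chr16:56669564-56669813 (+) for MT1H, chr16:56651636-56651885 (+) for MT1B and chr1:211579162-211579411 (-) for SLC30A1.
MT2A: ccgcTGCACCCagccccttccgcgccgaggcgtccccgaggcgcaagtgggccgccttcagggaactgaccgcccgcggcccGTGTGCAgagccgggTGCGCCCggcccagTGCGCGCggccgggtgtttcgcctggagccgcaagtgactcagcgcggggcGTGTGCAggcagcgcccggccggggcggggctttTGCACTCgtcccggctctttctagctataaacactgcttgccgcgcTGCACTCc
MT1X: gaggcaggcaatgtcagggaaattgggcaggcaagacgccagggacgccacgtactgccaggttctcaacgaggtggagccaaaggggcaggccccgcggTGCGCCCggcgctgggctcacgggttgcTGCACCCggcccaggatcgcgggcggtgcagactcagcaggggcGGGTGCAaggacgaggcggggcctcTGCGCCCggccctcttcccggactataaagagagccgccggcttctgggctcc
MT1H: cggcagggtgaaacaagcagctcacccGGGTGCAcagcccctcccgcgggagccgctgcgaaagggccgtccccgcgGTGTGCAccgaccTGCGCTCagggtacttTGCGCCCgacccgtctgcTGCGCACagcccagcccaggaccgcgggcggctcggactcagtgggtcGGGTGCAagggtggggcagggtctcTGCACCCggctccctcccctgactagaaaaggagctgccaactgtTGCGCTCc
MT1B: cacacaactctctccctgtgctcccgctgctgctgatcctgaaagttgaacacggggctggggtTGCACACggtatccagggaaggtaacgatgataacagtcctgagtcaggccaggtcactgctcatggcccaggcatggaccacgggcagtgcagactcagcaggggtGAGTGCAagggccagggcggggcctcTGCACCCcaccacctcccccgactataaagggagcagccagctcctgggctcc
SLC30A1: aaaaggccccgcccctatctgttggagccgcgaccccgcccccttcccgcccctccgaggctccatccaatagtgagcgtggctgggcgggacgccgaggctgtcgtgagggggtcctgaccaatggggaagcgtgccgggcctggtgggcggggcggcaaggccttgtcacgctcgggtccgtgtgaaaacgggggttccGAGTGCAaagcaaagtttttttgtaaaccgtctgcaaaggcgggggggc
MT1X, MT1H and MT1B share a match whose leftmost base lies 53 bases before the start, and MT2A has a match at 54 bases. MT2A and MT1H also share a match at 8 bases.

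The H23 libraries held 29395795 to 42421642 estimated read counts and the A549 libraries 23399562 to 25348083. Levels are given as CPM, counts scaled to library size with TMM factors, where a gene is compared with itself between lines, and as TPM, which takes length into account, where genes are compared with each other. H23 replicate 1 stood apart from the other H23 libraries, with a chi-square per gene of 106 and 136 against them, where H23 replicates 2 and 3 differed by 5.53 and the A549 pairs by 3.79 to 3.999. Each result below is therefore also given without it where the call changed. All 6 epithelial markers were detected in both lines. KRT8 and KRT18, keratins of simple epithelium, stood at 1435 ± 99.8 and 2618 ± 19.4 TPM in H23 and at 1436 ± 8.72 and 1859 ± 22.2 TPM in A549, while KRT7 had 129 counts in H23 and 257448 in A549. By edgeR's test KRT7, KRT19 and KRT8 were called higher in A549 (log2 folds 11.56, 3.72 and 0.55), and CDH1 and EPCAM higher in H23 (-1.43 and -0.91). Of the distal lung markers, NKX2-1 had 320 counts in H23 and 0 in A549, NAPSA 117 and 61, SFTPB 3 and 13, and SFTPC 0 and 2. The leukocyte markers PTPRC and CD3E, the endothelial marker PECAM1 and the fibroblast marker DCN had at most 1 count over the 3 libraries of a line. Other markers of those cell types had more, with 347 counts in H23 and 272 in A549 for CD14, 69 and 0 for VWF, 30 and 12 for CDH5, 2441 and 594 for COL1A1, 149 and 123 for PDGFRA, and 4 and 0 for COL1A2. The part of these differences in the results below was not tested.

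The 7 tested metallothionein genes were higher in H23, while most tested zinc exporters were higher in A549 and the importers went both ways. Of the 41 members, 33 had at least 1 count in some library and 26 passed the filter on low counts. By edgeR's quasi-likelihood test at an adjusted p under 0.05, 24 of these 26 were called, with A549 higher in 11 and H23 higher in 13. Over all 15426 tested genes 77.2% were called, with A549 higher in 37.6% and H23 higher in 39.6%, so a call by itself does not set a member apart. The libraries of the lines did not overlap in CPM for 24 of the 26 members, against 82.1% of all tested genes. The median log2 fold (A549 over H23) was -0.25 over the 26 members and -0.03 over all tested genes. On the log2(TPM + 1) scale, where the median over all genes was -0.41, A549 was higher in 6 members and H23 in 15. The p-values measure the spread between cultures of a line, and in bulk RNA fewer cells carrying a transcript and less RNA per cell cannot be told apart.

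**Figure D1:**
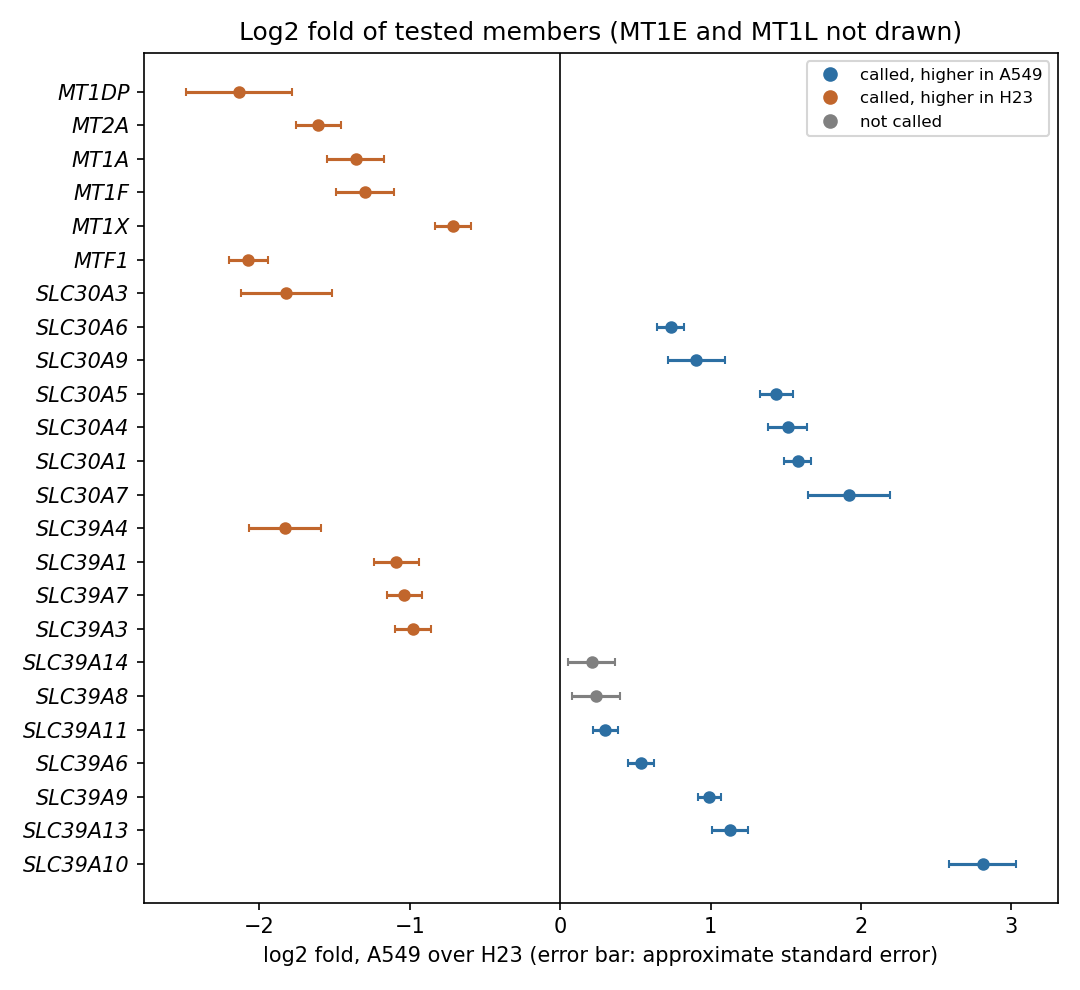
Log2 fold of TMM-scaled counts, A549 over H23, for 24 of the 26 tested members, with approximate standard errors. MT1E and MT1L are not drawn because A549 had 0 counts. The metallothionein genes and MTF1 lie left of 0, and 6 of 7 SLC30A genes lie right of 0, of which SLC30A6 falls to -0.30 once a trend with GC content and length is removed.

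All 7 tested metallothionein genes were called higher in H23, with a median log2 fold of -1.61, and none was higher in A549. MT1E and MT1L had 0 counts in A549 and MT1DP had 18, so they passed the filter on low counts only through H23. Their direction was thereby fixed in advance, while MT2A, MT1X, MT1A and MT1F could have gone either way. The share called higher in H23 over all genes was 39.6%. The TPM of all 16 metallothionein genes summed to 1974, 1789 and 1472 in H23 replicates 1 to 3 and to 332, 298 and 326 in A549. H23 was above A549 in every library, by 5.48-fold in the means (1745 ± 254 against 318 ± 18.0 TPM, SD, n = 3 each). On log2(TPM + 1) the median log2 fold over all genes was -0.41, toward H23, so a TPM ratio between the lines carries that shift. Without MT1E and MT1L the sum was still higher in H23, at 1220.5 ± 162 against 318 ± 18.0 TPM. Each of the 7 folds kept its sign and its call under all 12 alternatives run.

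MT2A, the major metallothionein of most human tissues, led in both lines, with 996 ± 144 TPM in H23 and 232 ± 16.6 TPM in A549. It ranked 155 by mean TPM among all genes in H23 and 425 in A549. Its CPM was 211, 184 and 145 in H23 replicates 1 to 3 and 63.8, 54.4 and 59.0 in A549. Every H23 library exceeded every A549 library, and the log2 fold was -1.61 ± 0.15 (SE, edgeR adjusted p = 7.14e-05). MT2A made up 57.1% ± 0.956 of metallothionein TPM in H23 and 72.8% ± 1.16 in A549.

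MT1E showed the widest gap of the protein-coding metallothionein genes. It stood at 106, 79.5 and 66.2 CPM in the 3 H23 libraries, from 9217 counts in all, and had 0 counts in each A549 library. Against a floor of 3 counts over the A549 libraries, MT1E was at least 2014-fold higher in H23. The pseudogene MT1L, which is transcribed but does not carry an intact coding frame, had the same pattern. Its CPM was 26.6, 22.2 and 17.9 in H23, from 2434 counts, with 0 counts in each A549 library, which puts it at least 532-fold higher in H23. MT1E and MT1L were called at edgeR adjusted p = 1.44e-05 and 1.81e-05. The filter kept both through H23 alone, so the direction of these calls was fixed in advance. Together they made up 29.97% ± 1.46 of metallothionein TPM in H23 and none in A549. Floors cover counting error only.

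MT1X, MT1A and MT1F were detected in both lines and were lower in A549. MT1X, a widely expressed MT1 gene, had 26.2, 24.1 and 20.4 CPM in H23 against 14.8, 14.8 and 13.5 in A549. Its log2 fold of -0.71 ± 0.12 (SE, edgeR adjusted p = 0.00134) was the smallest of the 7, and its libraries did not overlap between lines. On the TPM scale MT1X was the gene after MT2A in A549, where it gave 21.6% ± 1.88 of metallothionein TPM, against 9.08% ± 0.608 in H23. MT1A had 7.19, 6.12 and 5.53 CPM in H23 against 2.70, 1.92 and 2.72 in A549, for a log2 fold of -1.36 ± 0.19 (edgeR adjusted p = 0.000513). MT1F had 2.80, 2.47 and 2.59 CPM in H23 against 1.29, 0.959 and 0.948 in A549, for a log2 fold of -1.297 ± 0.19 (edgeR adjusted p = 0.000676). The H23 libraries lay above the A549 libraries without overlap for both genes. The pseudogene MT1DP was low in both lines, with 120 counts in H23 and 18 in A549, and was called higher in H23 (log2 fold -2.14 ± 0.35, edgeR adjusted p = 0.00121). When a trend of the fold with GC content and length was removed, an alternative chosen after seeing the data, the log2 folds grew to -2.90 for MT2A, -2.35 for MT1X, -3.13 for MT1A, -2.66 for MT1F and -3.95 for MT1DP.

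Close MT1 paralogs share sequence, and the counting software divides shared reads between them. In GENCODE transcripts, 94.7% of the 50-base windows of MT1E, 95.6% of MT1L and 95.1% of MT2A occurred in no other gene, but only 54.9% of MT1X, which overlaps another gene model on its strand. A sum over all 13 MT1 genes does not depend on how reads were divided among them. That sum was 170.1, 136 and 114 CPM in H23 against 19.0, 17.9 and 17.5 in A549. All 3 H23 libraries were above all 3 A549 libraries, with a log2 fold of -2.95 ± 0.16 (SE, edgeR adjusted p = 5.92e-06), or -4.63 with the GC and length trend removed. The standard deviation over the libraries was 28.5 CPM around 139.9 in H23 and 0.803 CPM around 18.1 in A549.

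The other metallothionein genes were at or near 0. MT1B, MT1H, MT1HL1, MT1IP, MT1JP, MT1M and MT4, the last known from stratified squamous epithelium, had 0 counts in all 6 libraries. MT1G had 1 count in H23 and 0 in A549, and MT3, known from brain, had 0 in H23 and 3 in A549, so no fold is given for either. A count of 0 in a library allows up to 3 counts, or 0.0706 to 0.100 CPM in H23 and 0.120 to 0.129 CPM in A549. In the RefSeq order along chromosome 16, the measured genes run MT4, MT3, MT2A, MT1L, MT1E, MT1M, MT1JP, MT1A, MT1DP, MT1B, MT1F, MT1G, MT1H, MT1IP, MT1X. MT1HL1 lies on chromosome 1. MT1L and MT1E, the genes at 0 in A549 and high in H23, are neighbours. MT2A on their near side and MT1A, beyond MT1M and MT1JP at 0 in all libraries, were detected in both lines.

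**Figure D2:**
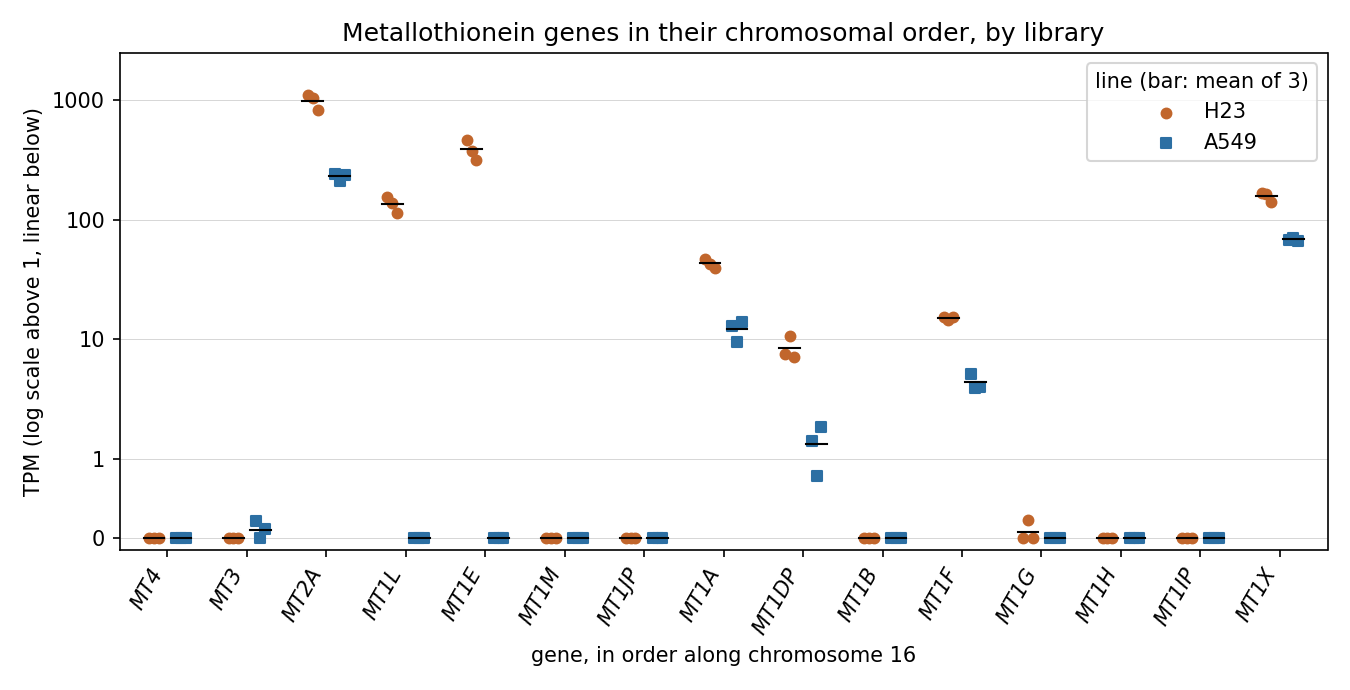
TPM of the 15 metallothionein genes of the chromosome 16 cluster in each library, in chromosomal order, with bars at the mean of 3 libraries and a scale that is logarithmic above 1 and linear below. MT1L and MT1E sit at 114 to 469 TPM in H23 and at 0 in A549, between MT2A and MT1A, which were detected in both lines.

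Genes around the cluster were read from a list of 10. Of the 8 that were tested, A549 was higher in 3 and H23 in 2, and 3 were not called, with a median log2 fold of 0.12 against -0.03 over all genes. The share called was 62.5%, against 77.2% of all tested genes. GNAO1, a G protein alpha subunit gene, had 19.9, 34.5 and 35.4 CPM in H23 against 0.0831, 0.120 and 0 in A549, for a log2 fold of -8.68 ± 0.50 (edgeR adjusted p = 6.83e-06). NLRC5, a regulator of MHC class I genes, went the other way with a log2 fold of 4.01 ± 0.24 (edgeR adjusted p = 8.92e-06). BBS2, which lies next to MT4 in that list, was called higher in H23 at a log2 fold of -0.31 ± 0.12 (edgeR adjusted p = 0.0450) and lost its call in 8 of 12 alternatives. NUP93, on the side of MT1X, was not called (log2 fold -0.19 ± 0.08, edgeR adjusted p = 0.0590), and was called higher in H23 without H23 replicate 1 (-0.24, adjusted p = 1.45e-05). OGFOD1, between NUDT21 and BBS2, was not called (log2 fold 0.10 ± 0.08, edgeR adjusted p = 0.284), or was called higher in A549 without H23 replicate 1 (0.11, adjusted p = 0.0441). NUDT21, also called higher in A549, turned to -0.33 with the GC and length trend removed. The called genes around the cluster thus went both ways. The 7 tested metallothionein genes went one way, though MT1E, MT1L and MT1DP, kept by the filter through H23 alone, could only go that way.

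MTF1, the zinc sensor that drives metallothionein transcription, was also higher in H23. Its CPM was 39.7, 49.2 and 46.9 in H23 and 10.2, 10.0 and 12.1 in A549. The lowest H23 library was above the highest A549 library, and the log2 fold was -2.07 ± 0.13 (SE, edgeR adjusted p = 1.02e-05). In TPM the gene stood at 9.09 ± 1.42 in H23 and 1.47 ± 0.209 in A549.

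Other zinc carriers and regulators of these genes formed a list of 17, of which 16 were tested. In that list A549 was higher in 6 genes and H23 in 3, and 7 were not called, with a median log2 fold of 0.01. The share called was 56.25%, against 77.2% of all tested genes. NR3C1, the glucocorticoid receptor that can induce MT2A, had 28.4, 26.6 and 29.8 CPM in H23 against 292, 281 and 270.4 in A549. NR3C1 was thus higher in A549, where MT2A was lower, with a log2 fold of 3.31 ± 0.09 (edgeR adjusted p = 3.34e-07). TRPM7, a channel that passes zinc and magnesium, and ZNF658, a zinc finger protein of zinc-dependent transcription, were higher in A549 at log2 folds of 3.04 ± 0.40 and 2.70 ± 0.40 (edgeR adjusted p = 0.000383 and 0.000671). MCOLN1, a cation channel of lysosomes, was higher in H23 at -1.71 ± 0.16 (edgeR adjusted p = 7.36e-05). USF1, a transcription factor that binds E-boxes, was higher in H23 at -0.69 ± 0.14 (edgeR adjusted p = 0.00344), but at -0.066 and not called with the GC and length trend removed (adjusted p = 0.545). SP1, a general transcription factor, was called higher in H23 at -0.31 ± 0.08 (edgeR adjusted p = 0.0110) and lost the call without A549 replicate 2 or without A549 replicate 3 (adjusted p = 0.0623 and 0.0564).

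A further list held 8 genes, taken as MTF1 targets outside the rule or as genes that respond to heavy metals or oxidants. The share called was 75%, against 77.2% of all tested genes. Of the 8, A549 was higher in 4 and H23 in 2, and the near-identical HSPA1A and HSPA1B, between which reads are hard to divide, were not called. Without H23 replicate 1 both were called higher in H23 (-0.30 and -0.15, adjusted p = 9.65e-07 and 0.00515). SLC40A1, the iron exporter, stood at 3.76 ± 0.466 CPM in H23 against 27.7 ± 0.565 in A549, for a log2 fold of 2.88 ± 0.12 (edgeR adjusted p = 2.08e-06). GCLC, the catalytic subunit of glutamate-cysteine ligase in glutathione synthesis, was higher in A549 at 2.31 ± 0.10 (edgeR adjusted p = 2.41e-06). PGF, a growth factor gene, was higher in H23 at -2.91 ± 0.20 (edgeR adjusted p = 1.46e-05), with 6.81 ± 0.292 CPM in H23 against 0.905 ± 0.231 in A549. The other gene called higher in H23, the chaperone gene DNAJB1 (log2 fold -0.29 ± 0.11, edgeR adjusted p = 0.0435), lost its call or turned in 9 of 12 alternatives.

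Of the 7 tested SLC30 exporters, A549 was called higher in 6 and H23 in 1, SLC30A3, with a median log2 fold of 1.44, though the sign of SLC30A6 turned with the GC and length trend removed. Over all tested genes 37.6% were called higher in A549. The summed TPM of the SLC30A genes was 75.4, 61.6 and 70.2 in H23 replicates 1 to 3 and 99.2, 101 and 106 in A549. The A549 libraries were all above the H23 libraries, with means of 102 ± 3.37 and 69.1 ± 6.96 TPM.

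SLC30A1, the exporter of the plasma membrane and itself an MTF1 target, had 12.4, 11.2 and 12.1 CPM in H23 against 34.5, 35.1 and 36.9 in A549. Each A549 library was well above each H23 library, with a log2 fold of 1.58 ± 0.09 (SE, edgeR adjusted p = 6.88e-06). The fold was 0.83 with the GC and length trend removed and 0.97 on the log2(TPM + 1) scale, and it was called in each. SLC30A1 was therefore higher in the line in which MTF1 and the metallothionein genes were lower.

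SLC30A5, SLC30A6 and SLC30A7 load zinc into the early secretory pathway, where SLC30A5 and SLC30A6 act as a heterodimer. SLC30A5 had 40.2, 31.7 and 37.0 CPM in H23 against 94.1, 102 and 99.3 in A549, for a log2 fold of 1.44 ± 0.11 (edgeR adjusted p = 2.47e-05). SLC30A6 had 57.0, 48.02 and 54.6 CPM in H23 against 87.9, 89.5 and 88.2 in A549, for a smaller log2 fold of 0.73 ± 0.09 (edgeR adjusted p = 0.000265). The call for SLC30A6 was lost on log2(TPM + 1), at 0.16 and adjusted p = 0.131, and with the GC and length trend removed it fell to -0.30. SLC30A7 had 20.3, 9.42 and 12.2 CPM in H23, where replicate 1 was the highest, and 53.7, 54.9 and 50.6 CPM in A549. It was higher in A549 at 1.92 ± 0.27 (edgeR adjusted p = 0.000531) and at 2.27 without H23 replicate 1.

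SLC30A9, which exports zinc from mitochondria, had 46.3, 27.6 and 32.7 CPM in H23 against 67.0, 69.6 and 62.9 in A549. H23 replicate 1 was nearest to A549, and the log2 fold was 0.90 ± 0.19 (edgeR adjusted p = 0.00371). On log2(TPM + 1) it was 0.37 and not called (adjusted p = 0.0554). SLC30A4, an exporter of endosomes and vesicles, had 4.97, 4.04 and 4.57 CPM in H23 against 12.8, 14.1 and 11.9 in A549, for a log2 fold of 1.51 ± 0.13 (edgeR adjusted p = 4.29e-05). In TPM the lines were closer, at 1.89 ± 0.209 and 2.36 ± 0.226, and on log2(TPM + 1) the call was lost (0.22, adjusted p = 0.073). On that scale SLC30A5 and SLC30A7 stayed called, at 0.72 and 1.15. With the GC and length trend removed, SLC30A4, SLC30A5, SLC30A7 and SLC30A9 were still called higher in A549, at 0.75, 0.84, 0.66 and 0.24.

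SLC30A3, known from synaptic vesicles, was the exception among the tested exporters. It had 2.40, 2.91 and 1.95 CPM in H23 against 0.914, 0.439 and 0.690 in A549, low in both lines, with a log2 fold of -1.82 ± 0.30 (edgeR adjusted p = 0.00118), or -1.10 on log2(TPM + 1). Its exons overlap DNAJC5G on the opposite strand, and the strand setting of the counting was not given in the sources used here. SLC30A8, which loads zinc into insulin granules, SLC30A10, a manganese exporter, and SLC30A2 had 0 to 3 counts over the 3 libraries of a line and were not tested. By mean TPM, H23 was led by SLC30A9, SLC30A5 and SLC30A6 at 17.8 ± 3.89, 17.7 ± 1.65 and 16.9 ± 1.12, which lie within each other's spread. A549 was led by SLC30A5 at 29.7 ± 1.61 TPM, above SLC30A9 at 22.9 ± 0.403 and SLC30A1 at 20.6 ± 1.46.

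**Figure D3:**
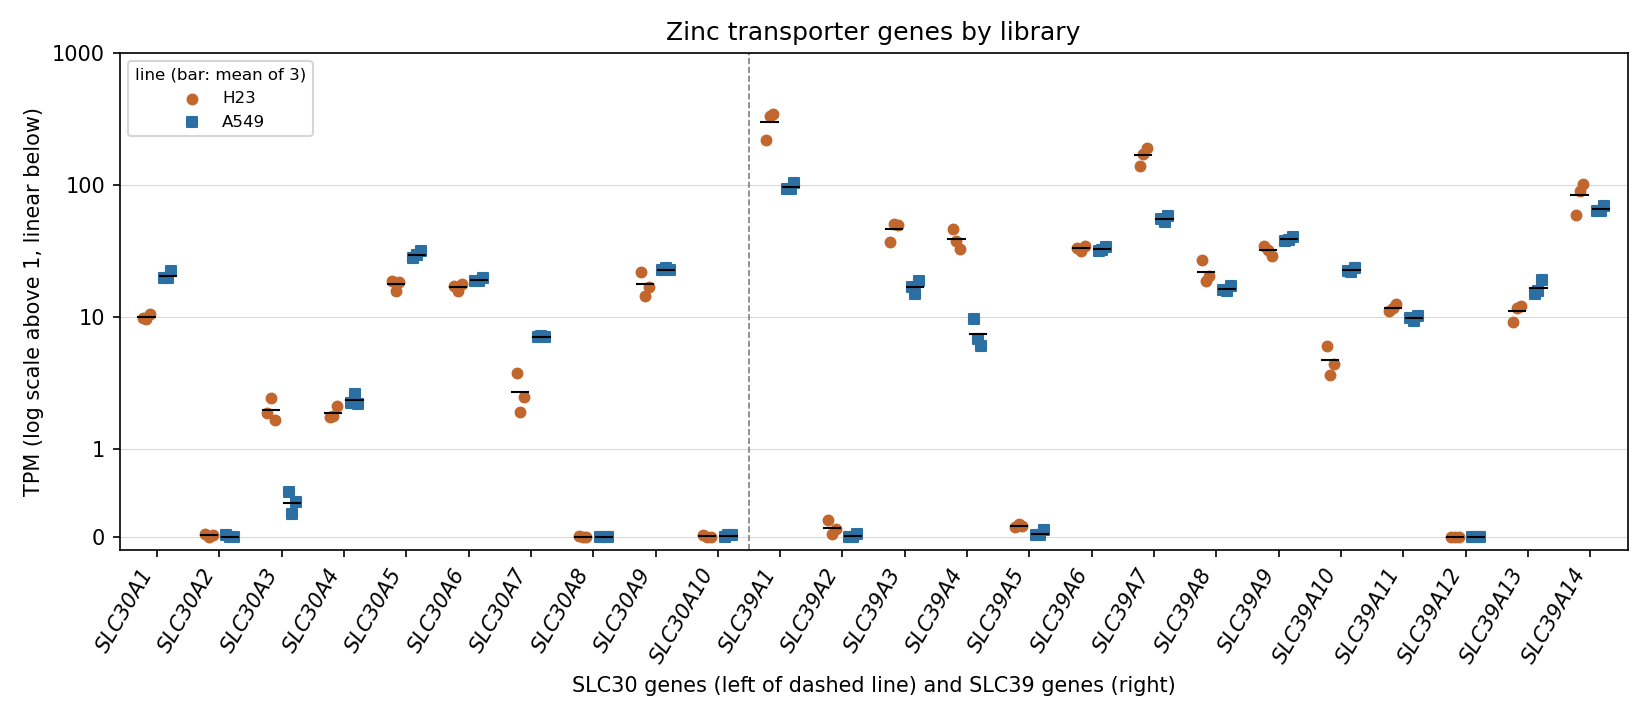
TPM of the 10 SLC30A and 14 SLC39A genes in each library, with bars at the mean of 3 libraries and a scale that is logarithmic above 1 and linear below. SLC39A1 has the highest mean TPM of the importers in both lines, followed by SLC39A7 in H23 and by SLC39A14 in A549, and SLC39A10 rises from 3.64 to 6.06 TPM in H23 to 22.1 to 23.7 TPM in A549.

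The 11 tested SLC39 importers were divided: A549 was called higher in 5, H23 in 4, and 2 were not called, with a median log2 fold of 0.24. The share called was 81.8%, against 77.2% of all tested genes. Of the 5 higher in A549, SLC39A6 and SLC39A11 were at -0.02 and -0.24 on log2(TPM + 1), where the median over all genes was -0.41, so they fell below 0 on that scale but stayed above its median. In summed TPM the family was higher in H23, at 624, 797 and 837 in replicates 1 to 3, against 371, 366 and 401 in A549. The lines did not overlap in this sum. SLC39A1 and SLC39A7 together gave 61.9% ± 3.75 of it in H23 and 40.1% ± 0.277 in A549, so the sum follows a few abundant genes while the counts of genes go both ways. The TPM of the importers over that of the exporters was 8.28, 12.9 and 11.9 in H23 and 3.74, 3.60 and 3.80 in A549.

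The 4 importers higher in H23 were SLC39A1, SLC39A3, SLC39A4 and SLC39A7. SLC39A1, a broadly expressed importer of the plasma membrane, had 298, 419 and 433 CPM in H23 against 176, 179 and 186 in A549. H23 replicate 1 was lowest in its line but above every A549 library, and the log2 fold was -1.09 ± 0.15 (SE, edgeR adjusted p = 0.000440). SLC39A7, which releases zinc from the endoplasmic reticulum, had 194, 234 and 259 CPM in H23 against 113, 109 and 114 in A549, for a log2 fold of -1.04 ± 0.12 (edgeR adjusted p = 0.000173). SLC39A3, a close relative of SLC39A1, had 39.1, 48.7 and 48.6 CPM in H23 against 23.5, 21.3 and 24.4 in A549, for a log2 fold of -0.98 ± 0.12 (edgeR adjusted p = 0.000264). With the GC and length trend removed these folds were smaller and still called, at -0.58 for SLC39A1, -0.56 for SLC39A7 and -0.33 for SLC39A3, while on log2(TPM + 1) SLC39A7 was at -1.57. SLC39A1 overlaps CREB3L4 and SLC39A7 overlaps RXRB on the opposite strand. SLC39A7 is also listed with 6 copies of each transcript, between which the reads were divided evenly.

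SLC39A4, the intestinal zinc importer that is lost in acrodermatitis enteropathica, was higher in H23 by the widest margin of the importers called in that direction. It had 15.8, 12.1 and 10.3 CPM in H23 against 4.61, 3.32 and 2.80 in A549. The H23 values lay above the A549 values without overlap, with a log2 fold of -1.83 ± 0.24 (edgeR adjusted p = 0.000360). Of its transcripts, 99.6% ± 0.151 in H23 and 99.1% ± 0.315 in A549 were assigned to a form of 673 bases, so its TPM of 38.9 ± 6.76 and 7.50 ± 1.85 rests on that short length. The counts, and so the log2 fold, also come almost wholly from that form. The longer forms NM_017767 (2318 bases) and NM_130849 (2174 bases) had at most 9 counts in a library, and their difference between lines was not tested. Exons of SLC39A4 overlap AC233992.3 on the opposite strand.

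SLC39A10, an importer that pairs with SLC39A6 at the plasma membrane, had the largest log2 fold of the tested transporters on TMM-scaled counts. Its CPM was 21.3, 11.7 and 14.1 in H23 replicates 1 to 3 and 110.2, 110.0 and 110.1 in A549. The A549 libraries were nearly equal and far above H23, where replicate 1 was highest. The log2 fold was 2.81 ± 0.22 (SE, edgeR adjusted p = 3.02e-05), 3.08 without H23 replicate 1 and 1.79 with the GC and length trend removed. Its partner SLC39A6 had 77.7, 65.7 and 73.2 CPM in H23 against 103, 106 and 105 in A549, for a log2 fold of 0.54 ± 0.09 (edgeR adjusted p = 0.00114). That call did not hold on log2(TPM + 1) (-0.02, adjusted p = 0.811) or with the GC and length trend removed (0.12, adjusted p = 0.132). In TPM, SLC39A6 was 33.2 ± 1.295 in H23 and 32.7 ± 1.32 in A549, and SLC39A10 was 4.70 ± 1.24 and 22.7 ± 0.837, so SLC39A10 was below its partner in both lines and closer to it in A549.

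SLC39A9, SLC39A11 and SLC39A13 are importers of the Golgi and neighbouring compartments. SLC39A9 had 82.2, 87.2 and 88.9 CPM in H23 against 169, 173 and 172 in A549, for a log2 fold of 0.99 ± 0.07 (edgeR adjusted p = 2.14e-05), and its exons overlap ERH on the opposite strand. SLC39A13, whose loss affects connective tissue, had 14.002, 16.5 and 16.97 CPM in H23 against 31.8, 33.8 and 38.2 in A549, for a log2 fold of 1.13 ± 0.12 (edgeR adjusted p = 0.000129). Both were higher in every A549 library than in any H23 library. On log2(TPM + 1) their folds were smaller and still called, at 0.27 and 0.56, and SLC39A9 was at 0.66 with the GC and length trend removed. SLC39A11 had 19.8, 18.9 and 20.5 CPM in H23 against 24.7, 24.0 and 24.3 in A549, for a log2 fold of 0.30 ± 0.09 (edgeR adjusted p = 0.0146). Its call was lost with upper quartile factors (0.17, adjusted p = 0.0988), and on log2(TPM + 1) the gene was called lower in A549 (-0.24, adjusted p = 0.0482), though above the all-gene median of that scale. With the GC and length trend removed its fold was 0.64 (adjusted p = 0.000185).

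SLC39A8 and SLC39A14, which also carry manganese, iron and cadmium, were not called. SLC39A14 had 185, 257 and 285 CPM in H23 against 275, 281 and 284 in A549, for a log2 fold of 0.21 ± 0.16 (edgeR adjusted p = 0.255) that turned to -0.31 on log2(TPM + 1). SLC39A8 had 46.4, 30.7 and 33.6 CPM in H23 against 43.1, 43.3 and 44.1 in A549, for a log2 fold of 0.24 ± 0.16 (edgeR adjusted p = 0.211). In both genes H23 replicate 1 lay apart from replicates 2 and 3, below them in SLC39A14 and above them in SLC39A8. Without it SLC39A8 was called higher in A549 (0.43, adjusted p = 3.07e-07), and SLC39A14 was still not called (0.04, adjusted p = 0.394). On log2(TPM + 1) SLC39A8 was called lower in A549 (-0.40, adjusted p = 0.0328), and SLC39A14 was called higher in A549 with the GC and length trend removed (0.31, adjusted p = 0.0344). Both log2(TPM + 1) values lay above the median of -0.41 over all genes on that scale.

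SLC39A2, SLC39A5 and SLC39A12 were not tested. SLC39A12, known from brain, had 0 counts in all libraries. SLC39A5 had 16 counts in H23 and 5 in A549. SLC39A2 had 10 counts in H23 and 1 in A549, a ratio of 6.56 after scaling to library size, with a 95% counting interval of 0.933 to 285. In the order of mean TPM, H23 ran SLC39A1 (301 ± 71.0), SLC39A7 (168 ± 26.0), SLC39A14 (83.8 ± 21.4), SLC39A3 (46.1 ± 7.84) and SLC39A4. A549 ran SLC39A1 (96.7 ± 5.96), SLC39A14 (65.6 ± 3.21), SLC39A7 (55.3 ± 3.22), SLC39A9 (38.9 ± 1.46) and SLC39A6. SLC39A3 and SLC39A4 were within each other's spread in H23.

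Transcript usage was tested on the transcript tables for the 14 members with at least 2 transcripts past the filter, all of them transporters. Usage differed in 5 of the 14 by edgeR's diffSpliceDGE gene test, against 25.8% of the 7539 genes tested. They were SLC39A8, SLC39A10, SLC39A11, SLC30A4 and SLC39A1. Without H23 replicate 1, SLC30A6 and SLC39A7 were called as well (adjusted p = 0.00447 and 0.0071). SLC39A7 is listed with copies of each transcript that hold equal values. The test took these copies as separate transcripts, so the p-value of SLC39A7 counts the same values more than once.

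SLC39A8 changed its leading transcript although its total was not called. The form NM_001135148 (2607 bases) gave 85.2, 69.7 and 69.5% of the gene's transcripts in H23 replicates 1 to 3 and 32.9, 32.8 and 29.4% in A549. The form NM_001135146 (3170 bases) gave 11.7, 19.0 and 26.4% in H23 and 64.2, 53.7 and 58.3% in A549. The shorter form led in each H23 library and the longer in each A549 library. The means were 74.8% ± 9.05 and 31.7% ± 1.96 for the shorter form (diffSpliceDGE adjusted p = 0.000471), and the call held in 9 of 9 alternatives. TPM divides by the length of the assigned forms and CPM does not, and the 2 scales gave opposite signs for the total of SLC39A8.

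SLC30A4 showed a similar exchange at low counts. Its short form NM_001321036 (1415 bases) gave 48.9, 58.4 and 61.6% in H23 and 17.6, 24.2 and 17.5% in A549, and the long form NM_013309 (7152 bases) gave the rest. The short form was higher in every H23 library (diffSpliceDGE adjusted p = 0.0094). The call was lost without H23 replicate 3, without A549 replicate 1 and without A549 replicate 3 (adjusted p = 0.0545, 0.0819 and 0.0718). In SLC39A11 the leading form NM_139177 gave 78.0, 78.9 and 70.0% in H23 and 56.0, 57.2 and 54.2% in A549 (diffSpliceDGE adjusted p = 0.00393). It led in all 6 libraries but was lower in each A549 library. That call was lost without H23 replicate 2 and without A549 replicate 1 (adjusted p = 0.0613 and 0.0631).

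In SLC39A10 the minor form NM_001127257 was at 0% in each H23 library and at 3.88, 4.81 and 3.51% in A549 (diffSpliceDGE adjusted p = 0.000619). The form passed the filter on transcripts only through A549, so the direction of its change was fixed in advance. The call held in the 8 alternatives that tested the gene. With a count of at least 10 required in all libraries, SLC39A10 was not tested. H23 had 1754 counts for the gene and A549 had 7960. In SLC39A1 the leading form NM_001271958 gave 88.02, 85.3 and 85.5% in H23 and 94.3, 92.9 and 93.3% in A549 (diffSpliceDGE adjusted p = 0.0212). The lines did not overlap, but the call was lost without A549 replicate 1, 2 or 3 (adjusted p = 0.091, 0.0567 and 0.182).

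**Figure D4:**
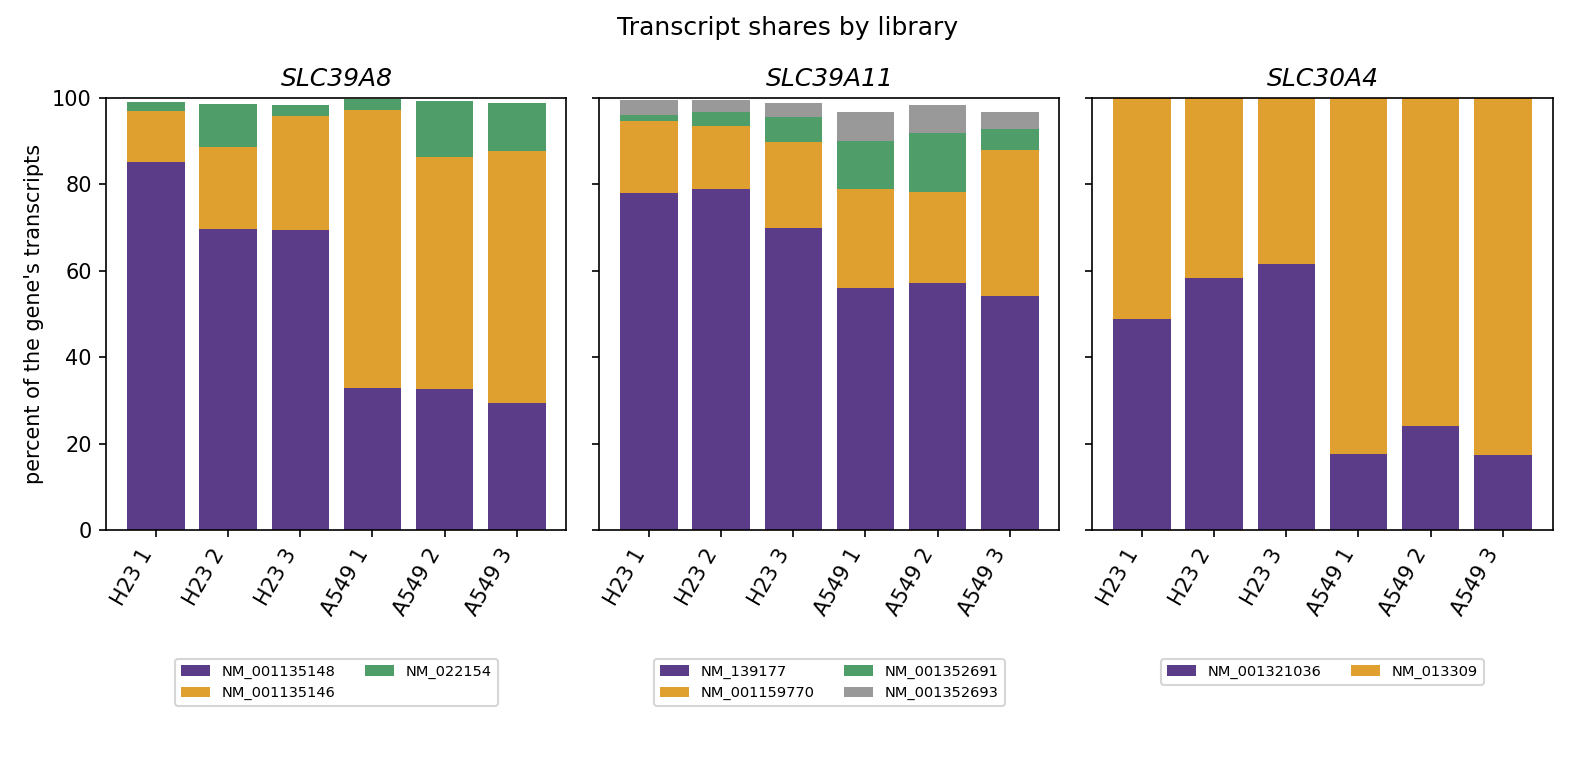
Share of each gene's transcripts, in percent, given to each RefSeq form in each library, for SLC39A8, SLC39A11 and SLC30A4, with forms that reach 5% in some library drawn. In SLC39A8 the leading form is NM_001135148 in the 3 H23 libraries and NM_001135146 in the 3 A549 libraries.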

How the data were processed

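RNA of 3 H23 and 3 A549 cultures was measured, with groups and replicate numbers from the labels. Per the submitters' processing notes, STAR 2.6.0c, RSEM 1.3.0 and the build hg19 were used, with options, annotation and strand setting not given in the sources used here. The deposited expected counts are RSEM's estimates of reads per gene or transcript, as the file headers name them. Deposited TPM values are scaled for length and depth by the authors' software, and the deposited percent values are shares of transcripts within a gene. The deposited FPKM values were not used.

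Expected counts were rounded and tested with edgeR 4.0.16 in R 4.3.3: filterByExpr, TMM factors of 0.985 to 1.02, its robust quasi-likelihood test, and p-values adjusted by Benjamini and Hochberg over all 15426 genes with a threshold of 0.05. Approximate standard errors were derived from each log2 fold and its F statistic. Usage was tested with diffSpliceDGE on 24779 transcripts. Scripts were tested on simulated data. An exact permutation test of 3 against 3 cannot go below p = 0.1, so calls rest on the model. Alternatives were DESeq2 1.42.0, upper quartile factors, no filter, limma 3.58.1 on log2(TPM + 1) with a pseudocount of 1, a replicate block, leaving out each library, and, chosen after seeing the data, removal of a trend with GC content and length. Every member may be named, and from longer lists up to 3 called genes per direction with the largest fold. Members and lists were chosen with earlier results of these data known. The files follow hg19 and hold no positions, and the promoter sequences and gene order are RefSeq's for GRCh38.p14. Single values of some listed genes outside the zinc system are not reported here, and the counts over their lists include them.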

Additional observations from a re-analysis of the deposited data

How the results depend on the processing

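Of the 26 tested members, 19 kept their direction and call under all 12 alternatives, the 7 metallothionein genes and MTF1 among them, and the MT1 sum ranged from -4.63 to -2.78. On log2(TPM + 1), 6 members were higher in A549 in place of 11, and the log2 fold turned to -0.24 for SLC39A11, -0.31 for SLC39A14, -0.021 for SLC39A6, -0.40 for SLC39A8, -0.38 for HERPUD1 and -0.46 for OGFOD1. The median over all genes was -0.41 on that scale, and of these 6 OGFOD1 lay below it. With the GC and length trend removed it turned to -0.30 for SLC30A6, -0.33 for NUDT21, -0.22 for OGFOD1, 0.16 for DNAJB1, 0.35 for HSPA1A and 0.38 for HSPA1B. OGFOD1 turned to -0.031 with upper quartile factors, and HSPA1B, which ranged from -0.15 to 0.015 with a library left out, to 0.015 without H23 replicate 3. In all of these the cause was not tested. Members with changed transcript usage numbered 5, and 2 to 7 when a library was left out. The replicate block gave 3 such members, losing SLC30A4 and SLC39A11 (adjusted p = 0.0647 and 0.0503), and 23 called members in place of 24, losing SLC39A11 (adjusted p = 0.0537 for its level). Deviations of same-numbered libraries correlated at 0.02, -0.04 and 0.05, so no pairing of the cultures by number was seen. Because H23 replicate 1 stood apart from its line, this check cannot exclude a pairing. Depth limits the members at 0 or near it, for which differences under the floor of 3 counts were not detectable.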

Other observations

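Copper-handling genes, which share metallothionein as a metal store, went both ways. Of 21 listed, 19 were tested, A549 was higher in 9 and H23 in 5, and 5 were not called, with a median log2 fold of 0.41 against -0.03 over all genes. The share called was 73.7%, against 77.2% of all tested genes. CP, the plasma ferroxidase ceruloplasmin, had 4 counts in H23 against 5.03, 4.63 and 4.14 CPM in A549, for a log2 fold of 6.84 ± 0.42 (edgeR adjusted p = 9.21e-06). STEAP2, a metalloreductase, was higher in A549 at 3.01 ± 0.28 (edgeR adjusted p = 7.15e-05) and COX11, a copper chaperone of cytochrome oxidase, at 1.12 ± 0.21 (edgeR adjusted p = 0.00202). LOX, a copper-dependent lysyl oxidase, was higher in H23, with 3.94, 5.48 and 5.84 CPM against 0.332, 0.479 and 0.345 and a log2 fold of -3.70 ± 0.26 (edgeR adjusted p = 1.77e-05). COX19, a further assembly factor of cytochrome oxidase, and COMMD1, a regulator of copper export, were also higher in H23 at -1.28 ± 0.09 and -1.22 ± 0.09 (edgeR adjusted p = 1.86e-05 and 2.08e-05). CP passed the filter on low counts only through A549 and LOX only through H23, so their directions were fixed in advance. STEAP2, COX11, COX19 and COMMD1 could have gone either way.

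Genes of zinc-dependent enzymes and of their relatives, mainly carbonic anhydrases and alkaline phosphatases, included larger folds than any tested transporter. Of 25 listed, 12 were tested, A549 was higher in 6 and H23 in 4, and 2 were not called, with a median log2 fold of 0.17. The share called was 83.3%, against 77.2% of all tested genes. CA12, a carbonic anhydrase of the cell surface, had 1.82, 2.07 and 2.80 CPM in H23 against 416, 411 and 405 in A549, for a log2 fold of 7.51 ± 0.18 (edgeR adjusted p = 2.74e-07). CA8, a relative without enzyme activity, and CA9, a further surface form, were higher in A549 at 2.68 ± 0.10 and 3.74 ± 0.42 (edgeR adjusted p = 9.66e-07 and 0.000164). The cytosolic forms CA2 and CA13 were higher in H23 at -4.23 ± 0.22 and -3.76 ± 0.45 (edgeR adjusted p = 4.32e-06 and 0.000231). ALPL, the alkaline phosphatase that receives zinc in the secretory pathway, had 5.52, 5.75 and 4.97 CPM in H23 against 0.208, 0.200 and 0.216 in A549, for a log2 fold of -4.68 ± 0.19 (edgeR adjusted p = 1.74e-06). The filter on low counts kept ALPL and CA13 through H23 alone and CA9 through A549 alone, so the directions of these calls were fixed in advance. With that limit, ALPL was higher in the line in which SLC30A5 and SLC30A7 were lower.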
